A study of Mus musculus with 6 samples.

Results

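Many proteins of the general transcription and translation machinery have germline versions, encoded by separate genes that are used mainly in germ cells. The genes described here are 7 of the 24470 genes in the count table. Brdt encodes the germline member of the BET family, which reads acetylated histones. Taf4b and Taf7l encode germline-enriched subunits of TFIID, the complex that places RNA polymerase II at promoters. Rpl10l and Rpl39l encode alternative versions of large-subunit ribosomal proteins. Sohlh1 and Sohlh2 encode basic helix-loop-helix transcription factors of spermatogonia and oocytes. The genes were taken by name as members of these families, and Brdt, Rpl10l and Sohlh2 were also chosen by their lower counts in the cKO samples in an earlier test of the same samples. All differences between cKO and control for these 7 genes are therefore given as a description. Calls by edgeR and DESeq2 are listed for them, but nothing is read from these calls.

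Whole testes at embryonic day 12.5 (E12.5) were sequenced in 3 control and 3 Ppp1r3c cKO (conditional knockout) samples, each a pool of gonad pairs. Control embryos were Ppp1r3c f/f, with floxed alleles and no Cre. The cKO embryos were Sf1-Cre Ppp1r3c f/f, in which the Nr5a1 (Sf1) driven Cre acts in Sertoli cell progenitors and other somatic cells of the gonad, so that germ cells are not the cells targeted. All 6 samples shared the floxed alleles, the C57BL/6 background and the stage. Ppp1r3c, which encodes a subunit that directs protein phosphatase 1 to glycogen, was at 22.1 to 24.4 CPM (counts scaled to a common library size) in control and 4.71 to 5.96 CPM in cKO samples (log2 fold change -2.11, SE 0.111, edgeR FDR 0.000126).

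In the adult testis the roles of these genes are best known from spermatogenesis. During male meiosis the X chromosome is silenced, and autosomal copies such as Rpl10l and Rpl39l supply proteins whose original genes, Rpl10 and Rpl39, are X-linked. BRDT is needed in meiotic and postmeiotic cells, TAF4B for the upkeep of the germline, TAF7L for spermatogenesis, and the SOHLH proteins for the differentiation of spermatogonia and the early growth of oocytes. At E12.5, germ cells of the XY gonad have recently settled in the testis cords and have not entered meiosis.

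The libraries held between 16139487 counts (control replicate 1) and 44145158 counts. Markers of the cells that could be present were examined as lists. Sertoli cell markers summed to 1408 to 1888 CPM, and every one of the 8, Sox9 and Amh included, was present in each sample. The 14 germ cell markers summed to 533, 812 and 857 CPM in control and 550, 256 and 410 CPM in cKO replicates 1 to 3. The groups overlapped, since control replicate 1 lay below cKO replicate 1. The 6 markers of pre-granulosa cells, the supporting cells of the ovary, summed to 268 CPM in cKO replicate 3 and to 82.8 to 100.2 CPM in the other 5 samples. Fst, a gene of these ovarian cells, reached 50.9 CPM in cKO replicate 3 and at most 2.02 CPM elsewhere. Xist, the RNA that coats the silenced X of female cells, had 12534 counts in that sample and 6 to 41 counts in the others. Mesonephros markers summed to 39.0 CPM in cKO replicate 3 and 20.4 to 28.9 CPM in the others, with Cdh16 at or near 0. Within this list Pax2, Pax8 and Calb1 were higher in every cKO sample than in every control sample. Lhx1 was at 8.37, 15.0 and 16.4 CPM in control and 11.9, 3.81 and 7.84 CPM in cKO samples. It was the largest part of the sum in control replicates 2 and 3 and cKO replicate 1, and Pax8 was the largest part in the other samples. Calb1 had the lowest p, at 0.739, 2.04 and 0.708 CPM in control and 2.77, 2.39 and 11.2 CPM in cKO samples (log2 fold change 2.14, SE 0.640, edgeR FDR 0.377). The part of mesonephros tissue in the results was not tested. Of the Sertoli markers Sox9 had the lowest p (log2 fold change 0.28, SE 0.0919, edgeR FDR 0.377). edgeR and DESeq2 called 0 genes of these somatic lists, but DESeq2 gave no adjusted p to Fst and Cdh16. At an unadjusted edgeR p below 0.05 there were 2 Sertoli, 4 pre-granulosa and 3 mesonephros markers, all higher in cKO. Of all tested genes, 5.56% were higher at that threshold. The 4 pre-granulosa markers, Fst, Foxl2, Wnt4 and Irx3, were each highest in cKO replicate 3. In bulk samples, fewer cells of a type and less RNA per cell cannot be told apart.

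The ribosomal paralogs and their X-linked counterparts encode closely related proteins from different DNA. The start of the coding sequence is shown because it bears on whether reads of a pair can be told apart, with capitals at the bases that differ between the aligned pair. These are reference sequences of GENCODE M21 transcripts (build GRCm38), in lower case where the pair is identical.
Rpl10l, coding bases 1 to 150: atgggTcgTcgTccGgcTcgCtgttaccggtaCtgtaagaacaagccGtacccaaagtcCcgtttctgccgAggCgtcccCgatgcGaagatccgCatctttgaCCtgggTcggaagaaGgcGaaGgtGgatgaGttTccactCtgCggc
Rpl10, coding bases 1 to 150: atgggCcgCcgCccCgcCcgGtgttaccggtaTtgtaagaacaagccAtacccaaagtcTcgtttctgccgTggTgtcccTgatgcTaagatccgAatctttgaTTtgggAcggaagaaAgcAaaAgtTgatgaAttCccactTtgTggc
Rpl39l, coding bases 1 to 153: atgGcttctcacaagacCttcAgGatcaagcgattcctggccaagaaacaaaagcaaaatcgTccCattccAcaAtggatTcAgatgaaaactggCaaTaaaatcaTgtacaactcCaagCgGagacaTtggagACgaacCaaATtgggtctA
Rpl39, coding bases 1 to 153: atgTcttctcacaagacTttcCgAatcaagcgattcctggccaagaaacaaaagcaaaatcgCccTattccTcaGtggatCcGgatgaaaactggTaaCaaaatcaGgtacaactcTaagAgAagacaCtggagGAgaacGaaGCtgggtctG

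Over the 642 coding bases of Rpl10l, without the stop codon, 98 differed from Rpl10 (84.7% identity), and 89 of these were the last base of a codon. Over the 153 coding bases of Rpl39l, 23 differed from Rpl39 (85.0% identity), of which 16 were the last base of a codon. The longest identical stretches were 23 and 38 bases. Of all windows of 50 bases along the Rpl10l transcript, 7.60% also occurred in a transcript of another gene, Gm14460, and 0% of those of Rpl39l occurred in any other gene. For Brdt, Taf4b, Taf7l, Sohlh1 and Sohlh2 the share was also 0%. The counterparts were less distinct, with 85.4% of the windows of Rpl10 and 16.2% of those of Rpl39 found in other genes, so the counts of Rpl10 and Rpl39 are uncertain where reads matched several copies. The windows were shorter than the paired reads of the study, so these shares can overstate how many reads matched several copies. Rpl10l has 1 exon, and the coding sequence of Rpl39l lies within 1 of its 3 exons.

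The regions before the transcription start were examined for sequence features. The 250 bases upstream are shown for Brdt, Sohlh1 and Taf7l, which hold the letters CACGTG, and for Sohlh2, the partner of Sohlh1, which does not. The sequences are from RefSeq (build GRCm38.p6), read 5′ to 3′ on the strand of the gene, with capitals at each E-box, CANNTG, the kind of site bound by basic helix-loop-helix factors.
Brdt (chr5:107330944-107331193, plus strand): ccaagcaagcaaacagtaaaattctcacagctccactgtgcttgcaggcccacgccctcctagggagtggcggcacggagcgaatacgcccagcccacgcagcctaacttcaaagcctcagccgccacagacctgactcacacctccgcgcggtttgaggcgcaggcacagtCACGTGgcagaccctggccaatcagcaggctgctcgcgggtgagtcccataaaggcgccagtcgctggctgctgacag
Sohlh1 (chr2:25847249-25847498, minus strand): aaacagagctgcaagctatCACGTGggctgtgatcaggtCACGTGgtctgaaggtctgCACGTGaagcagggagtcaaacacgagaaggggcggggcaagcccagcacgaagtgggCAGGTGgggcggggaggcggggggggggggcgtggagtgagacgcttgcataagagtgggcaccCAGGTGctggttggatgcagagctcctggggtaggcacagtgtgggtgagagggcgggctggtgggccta
Taf7l (chrX:134476491-134476740, minus strand): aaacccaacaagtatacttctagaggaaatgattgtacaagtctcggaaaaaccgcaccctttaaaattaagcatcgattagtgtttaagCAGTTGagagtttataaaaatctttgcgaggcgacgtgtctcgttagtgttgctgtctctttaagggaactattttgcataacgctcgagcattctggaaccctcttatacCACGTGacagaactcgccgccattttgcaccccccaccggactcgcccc
Sohlh2 (chr3:55181794-55182043, plus strand): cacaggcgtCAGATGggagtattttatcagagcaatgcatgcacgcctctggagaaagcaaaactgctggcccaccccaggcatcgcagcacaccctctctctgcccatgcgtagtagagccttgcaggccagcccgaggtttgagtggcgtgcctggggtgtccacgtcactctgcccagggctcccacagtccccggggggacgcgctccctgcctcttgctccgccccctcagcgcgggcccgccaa

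A promoter sequence was matched for 6 of the 7 genes, and that of Taf4b was not analysed here. CACGTG, an E-box that reads the same on both strands and is among the sites bound by the MAX and MGA proteins, was present in 3 of the 6. It was present in 6.02% of the 32851 mouse promoters of the same length. Sohlh1 held 3 copies, at 231, 211 and 192 bases before the start, a number reached by 20 promoters (0.0609%). The copies of Brdt and Taf7l lay 78 and 49 bases before the start. The general letters CANNTG, which include CACGTG, were found in 5 of the 6 and in 66.2% of all promoters. TCCCGC, searched on both strands as a site of the E2F6 kind, was found in Rpl10l alone of the 6 and in 16.9% of all promoters. The 6 promoters held 8 to 16 CG dinucleotides, against a median of 6 and quartiles of 2 and 16 over all promoters. The motifs were chosen after the promoters were seen, so the comparison with all promoters is no test of enrichment. These matches are descriptions of letters, and no binding was measured.

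CPM divided by exon length (RPKM) allows the levels of the 7 genes to be compared with each other in control testes. Rpl39l was at 12.7, 19.6 and 15.6 RPKM in control replicates 1 to 3, Sohlh2 at 7.42, 11.6 and 13.1 RPKM, and Rpl10l at 6.74, 8.92 and 9.23 RPKM. Taf4b was at 3.54, 5.31 and 5.67 RPKM and Brdt at 1.82, 2.32 and 2.08 RPKM. Taf7l (0.165, 0.686 and 0.326 RPKM) and Sohlh1 (0.191, 0.299 and 0.0757 RPKM) were near the limit of detection. In this order the ranges of Rpl39l and Sohlh2, of Sohlh2 and Rpl10l, and of Taf7l and Sohlh1 overlapped, whereas Rpl10l, Taf4b, Brdt and Taf7l followed each other without overlap. Germline transcription and ribosome genes other than Taf7l and Sohlh1 were thus measured from at least 112 counts in every sample, and those 2 genes from 4 to 72.

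Brdt (chromosome 5, 107331194 to 107387058, plus strand) was at 9.30, 11.9 and 10.6 CPM in control replicates 1 to 3 and at 5.56, 4.09 and 3.84 CPM in cKO replicates 1 to 3. Every cKO sample lay below every control sample, and the gap between the closest samples was wider than the spread within either group. The means were 10.6 ± 1.29 and 4.50 ± 0.930 CPM (SD, n = 3 each), so that the cKO mean was 42.4% of control. The log2 fold change was -1.24 (SE 0.171), and stayed between -1.43 and -1.14 when single samples were left out.

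Taf4b (chromosome 18, 14783245 to 14900359, plus strand) was at 18.2, 27.3 and 29.2 CPM in control and 21.1, 14.5 and 16.4 CPM in cKO samples. The groups overlapped, with cKO replicate 1 above control replicate 1. The cKO mean was 69.6% of control (log2 fold change -0.54, SE 0.182, from -0.71 to -0.42 without single samples). The other TFIID paralog, Taf7l (chromosome X, 134460116 to 134476490, minus strand), was at 0.369, 1.54 and 0.732 CPM in control and 0.997, 0.779 and 2.18 CPM in cKO samples, from 6 to 72 counts per sample. These values also overlapped. Its log2 fold change was 0.47 (SE 0.503), which became -0.09 without cKO replicate 3, the sample with Xist and pre-granulosa transcripts, and 1.13 without control replicate 2. No direction can be read from Taf7l.

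**Figure D1:**
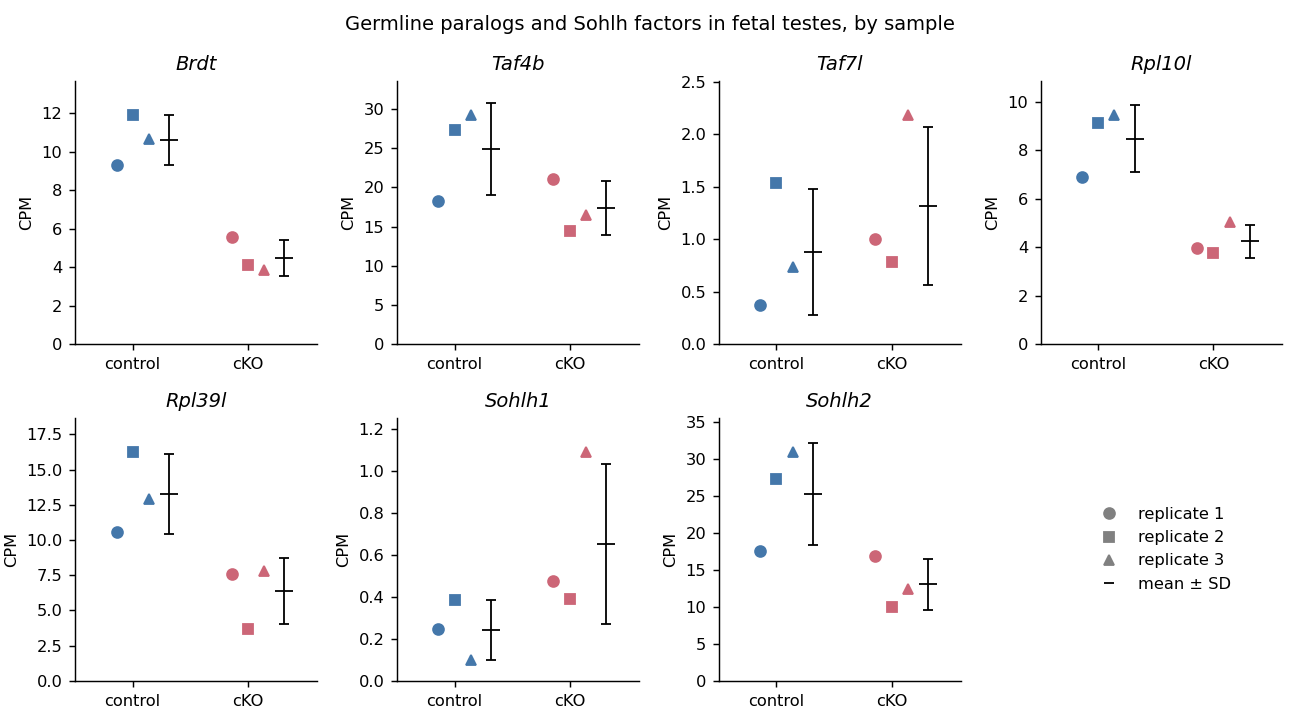
Library-size scaled counts (CPM, vertical axis, linear and starting at 0) of each gene in the 3 control and 3 cKO samples, with the mean ± SD beside the points. Brdt, Rpl10l, Rpl39l and Sohlh2 are lower in each cKO sample than in each control sample, while Sohlh1 and Taf7l are highest in cKO replicate 3.

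Rpl10l (chromosome 12, 66283379 to 66284401, minus strand) was at 6.90, 9.12 and 9.44 CPM in control and at 3.96, 3.75 and 5.02 CPM in cKO samples. The groups did not overlap. The cKO mean was 50.04% of control, from 8.49 ± 1.39 to 4.25 ± 0.679 CPM (SD, n = 3 each), and the log2 difference -1.01 (SE 0.173). Rpl39l (chromosome 16, 10170228 to 10174911, plus strand) was at 10.6, 16.3 and 12.9 CPM in control and at 7.61, 3.67 and 7.84 CPM in cKO samples. These groups did not overlap either, although cKO replicate 2 stood well below the others. The cKO mean was 48.1% of control and the log2 fold change -1.07 (SE 0.265), which was -0.79 without cKO replicate 2.

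Sohlh2 (chromosome 3, 55182044 to 55209957, plus strand) was at 17.5, 27.4 and 31.0 CPM in control and at 16.9, 9.98 and 12.4 CPM in cKO samples. The groups were apart by a narrow margin, between control replicate 1 and cKO replicate 1. The cKO mean was 51.7% of control (log2 fold change -0.97, SE 0.223, from -1.20 to -0.80 without single samples). Its partner gene Sohlh1 (chromosome 2, 25842995 to 25847248, minus strand) was measured from 4, 17 and 4 counts in control and 19, 14 and 36 counts in cKO samples. These correspond to 0.246, 0.385 and 0.0976 CPM against 0.474, 0.389 and 1.09 CPM. Each cKO value lay above each control value, by 0.389 against 0.385 CPM at the closest point. The log2 fold change was 1.38 (SE 0.576). It was 0.81 without cKO replicate 3, 0.93 without control replicate 3 and 2.09 without control replicate 2. The part of XX tissue in cKO replicate 3 in these values was not tested.

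Counts of calls are set beside those of all genes, and nothing is read from them because the choice of genes used this contrast. edgeR called 0 of the 7 genes at an adjusted p (FDR) below 0.05, where 0.0385% of the 15577 tested genes were called in either direction. At an unadjusted p below 0.05 edgeR counted 5 of 7 as lower in cKO, where 5.8% of all tested genes were, and 1, Sohlh1, as higher, where 5.56% of all tested genes were. DESeq2, the tool of the study, called 4 of 7 lower, Brdt, Rpl10l, Rpl39l and Sohlh2, where it called 0.379% of genes lower, and it gave no adjusted p to Sohlh1. Every cKO sample was below every control sample for 4 of 7 genes (7.17% of all tested genes), and above for 1 (8.42%). The number called by DESeq2 was 2 without control replicate 2 (Brdt and Rpl10l) and 3 without cKO replicate 3 (Brdt, Rpl10l and Rpl39l). It was 5 without control replicate 1 or cKO replicate 1. Sohlh2 thus lost its call without control replicate 2 (DESeq2 FDR 0.769) and without cKO replicate 3 (DESeq2 FDR 0.686). All 7 genes passed the filter on low counts.

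To place these differences beside the germ cell content of each sample, the level of each gene was set against the mean of the 14 germ cell markers, both as log2 CPM minus the control mean. The marker level was -0.42, 0.19 and 0.23 in control and -0.38, -1.38 and -0.74 in cKO replicates 1 to 3. Sohlh2 stayed close to it in every sample, at -0.49, 0.15 and 0.33 in control and -0.54, -1.30 and -0.98 in cKO samples. Taf4b lay above the marker level in all 3 cKO samples, most in cKO replicate 2, where it was at -0.75. Brdt lay below the marker level in cKO replicates 1 and 3, by 0.54 and 0.71 on the log2 scale, as seen from its levels of -0.92 and -1.44. Over the 6 samples Pearson's r with the marker level was 0.98 for Sohlh2, 0.96 for Taf4b, 0.95 for Rpl39l, 0.86 for Brdt and 0.85 for Rpl10l, and it was 0.03 for Taf7l and -0.50 for Sohlh1. These correlations are descriptions over 6 samples that share the group difference. The part of germ cell content in the lower values was not tested.

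**Figure D2:**
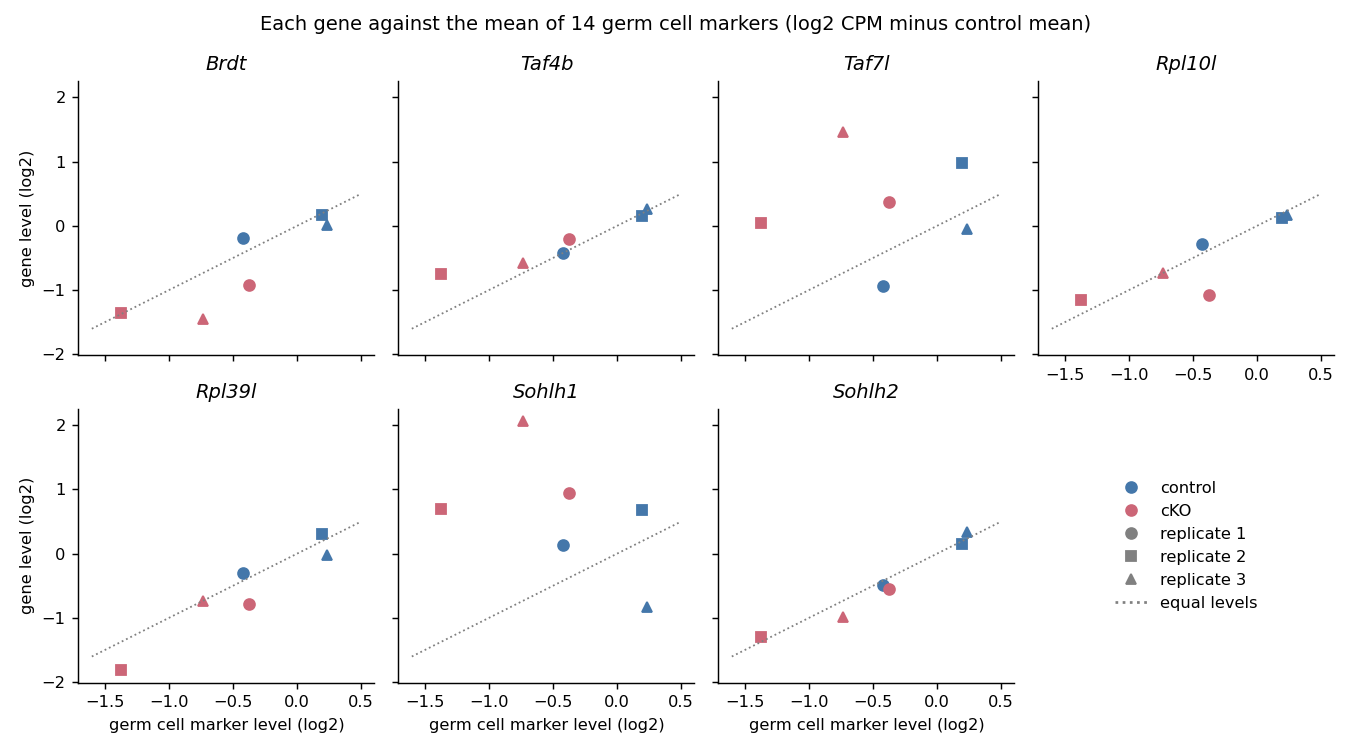
Log2 CPM minus the control mean of each gene (vertical axis) against the mean of 14 germ cell markers on the same scale (horizontal axis), with 1 point per sample and a dotted line where both are equal. Points of Sohlh2 lie near the line, those of Taf4b lie above it in the cKO samples, those of Brdt in cKO replicates 1 and 3 lie below it, and those of Sohlh1 and Taf7l do not follow it.

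After subtraction of the marker level, the cKO values of Brdt were -0.54, 0.02 and -0.71, with a mean of -0.41 ± 0.381 (SD, n = 3) against a control SD of 0.232. For Rpl10l the remaining difference was -0.16 ± 0.480, for Rpl39l -0.28 ± 0.244 and for Sohlh2 -0.11 ± 0.171 (SD, n = 3 each). The differences of Rpl10l and Sohlh2 were smaller than the SD of the cKO samples. For Taf4b it was 0.32 ± 0.264 (SD, n = 3), little more than the SD of the cKO samples. Its cKO values were 0.17, 0.63 and 0.17, and its control SD was 0.0283. Of the 14 single markers, Dppa3 was lowest, at 42.4% of control, as was Brdt, and Nanos3 was highest, at 78.5%. The other markers lay between 50.5% (Sycp3) and 67.9% (Utf1). The spread of single markers around the marker level was not tested.

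Correlations among the 5 genes that were lower include the group difference by which they were grouped, so positive values are built in. Among Brdt, Rpl10l, Rpl39l, Taf4b and Sohlh2, Pearson's r of log2 CPM over the 6 samples was 0.80 to 0.98, highest for Taf4b with Sohlh2 (0.98). Sohlh1 had negative values with each of the 5, from -0.36 with Rpl39l to -0.72 with Brdt, and 0.70 with Taf7l. Over all tested genes outside the 7, those whose log2 CPM was most like the mean profile of the 7 were Cenpp (r = 0.997), Mcm7 (r = 0.995), Slc2a3 (r = 0.994), Lncenc1 (r = 0.992) and Snap91 (r = 0.992). The gene most like each was Rsph1 for Brdt, Gnat2 for Rpl10l, Etfa for Rpl39l, Cadm2 for Taf7l, Plekhg3 for Taf4b, Zbtb7c for Sohlh1 and Dlgap5 for Sohlh2, with r of 0.989 to 0.998. These are the highest values over all tested genes with 6 samples, and are given as a description.

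The widely expressed counterparts were then compared between cKO and control, in the fit over all genes. edgeR and DESeq2 called 0 of the 6, and 1, Rpl39, had an unadjusted edgeR p below 0.05. Brd2 and Brd3, BET genes of somatic cells, had log2 fold changes of -0.01 (SE 0.0468) and 0.02 (SE 0.0462). Taf4 was at 40.7, 39.7 and 41.0 CPM in control and 42.8, 42.2 and 42.8 CPM in cKO samples (log2 fold change 0.07, SE 0.0576, edgeR FDR 0.642). Each cKO value of Taf4 lay above each control value. For Taf7 the groups overlapped (log2 fold change -0.09, SE 0.0848, edgeR FDR 0.695).

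Of the ribosomal counterparts, Rpl10 was at 651, 645 and 601 CPM in control and 601, 598 and 606 CPM in cKO samples, which overlapped (log2 fold change -0.07, SE 0.0520, edgeR FDR 0.622). Rpl39 was at 183, 178 and 170 CPM in control and 161, 145 and 151 CPM in cKO samples. Its groups did not overlap (log2 fold change -0.22, SE 0.0566), and it did not pass the threshold (edgeR FDR 0.377, DESeq2 FDR 0.0984). The median log2 fold change of the 6 counterparts was -0.04, beside -0.0034 over all tested genes and -0.97 for the 7 germline genes. The last is the value of Sohlh2, which with Brdt and Rpl10l was chosen by this contrast, so the gap is in part built in.

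**Figure D3:**
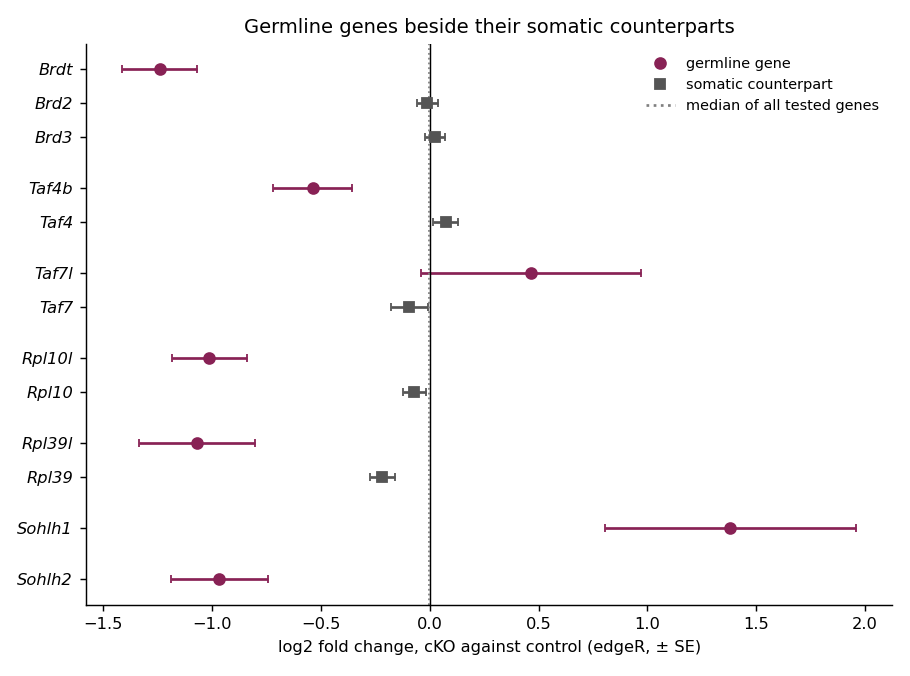
Log2 fold change of cKO against control (horizontal axis, edgeR, bars are SE) of each germline gene (circles) above its somatic counterparts (squares), with a dotted line at the median of all tested genes. The counterparts lie between -0.22 and 0.07, and 5 of the 7 germline genes lie between -1.24 and -0.54. Brdt, Rpl10l and Sohlh2 were chosen by this contrast.

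The output of each germline gene was also expressed as a percentage of its counterpart, per length of exon. Rpl10l reached 2.13%, 2.84% and 3.15% of Rpl10 in control and 1.32%, 1.26% and 1.66% in cKO samples. Rpl39l reached 9.997%, 15.7% and 13.1% of Rpl39 in control and 8.17%, 4.37% and 8.95% in cKO samples. Neither ratio overlapped between the groups. Brdt reached 3.66%, 4.77% and 4.35% of Brd2 in control and 2.25%, 1.64% and 1.57% in cKO samples, again without overlap. Rpl10l and Brdt were chosen by this contrast, so the separation of their ratios is in part built in. All 3 ratios, that of Rpl39l included, mostly repeat the difference of the germline gene itself. The log2 fold changes of Rpl10, Rpl39 and Brd2 were only -0.07, -0.22 and -0.01. Taf4b was the most abundant relative to its counterpart, at 40.2%, 61.8% and 63.9% of Taf4 in control and 44.3%, 30.8% and 34.5% in cKO samples, with overlap. Taf7l was at 1.16% to 4.05% of Taf7 in control and 2.54% to 6.29% in cKO samples. Exon lengths covered every annotated transcript of a gene and came from an annotation other than that used for counting. The levels of these percentages depend on these lengths, while their ratios between samples do not. The uncertain counts of Rpl10 and Rpl39 also bear on the percentages of those pairs.

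Other TFIID subunits and relatives of the TATA-binding protein TBP, with Taf5l and Taf6l, TAF relatives that belong to the SAGA complex, formed a list of 17 genes, of which 16 passed the filter. edgeR and DESeq2 called 0 of them, and 1 had an unadjusted edgeR p below 0.05. This was Taf5, a core subunit (log2 fold change -0.17, SE 0.0758, edgeR FDR 0.434). The median was -0.09, with 15 lower and 1 higher. Tbpl1, a TBP relative needed in spermatids, was at 49.3 to 51.6 CPM in control and 48.6 to 51.0 CPM in cKO samples. Tbpl2, the oocyte form, was at 0 counts in all 6 samples.

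Of 8 other paralogs of ribosomal and transcription proteins, 6 passed the filter, with a median log2 fold change of -0.23. edgeR called 0 (2 at an unadjusted p below 0.05) and DESeq2 called 1. This was Rps4l, a paralog of the X-linked Rps4x, at 132, 162 and 150 CPM in control and 122, 108 and 116 CPM in cKO samples. The groups did not overlap, and DESeq2 alone passed the threshold (log2 fold change -0.36, SE 0.0798, edgeR FDR 0.377, DESeq2 FDR 0.00932). Taf7l2, a further paralog of Taf7, and Gtf2a1l, the germline TFIIA subunit, were at most 0.464 and 0.268 CPM.

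The partners and targets of the SOHLH proteins, together with other germline transcription regulators, formed a list of 16 genes, 15 of them in the table and 8 above the filter. Their median log2 fold change was -0.0017, with 4 higher and 4 lower, and it was -0.23 without cKO replicate 3. edgeR and DESeq2 called 0, but of the 8 DESeq2 gave no adjusted p to Sox3 and Nobox. At an unadjusted edgeR p below 0.05 there were 3 lower and 1 higher, so the median lies between opposite differences. The lower were Tcfl5, Kit (log2 fold change -0.45, SE 0.173) and Sox3 (-0.91, SE 0.399, at 0.278 to 0.952 CPM). The higher was Gfra1 (0.35, SE 0.124). The lowest p was that of Tcfl5, a helix-loop-helix gene of spermatocytes (log2 fold change -0.69, SE 0.233, edgeR FDR 0.377). Tcfl5 was at 3.63, 4.37 and 4.88 CPM in control and 3.57, 2.42 and 2.03 CPM in cKO samples. The oocyte factors Figla and Lhx8 were at 0.0976 CPM or less in each sample, Nobox at 0.181 to 0.334 CPM, and Stra8, which marks entry into meiosis, at 0.123 CPM or less. Stra8 was at 0 in 3 of the 6 samples, cKO replicate 3 among them. Kit, a receptor gene regulated by SOHLH factors in spermatogonia, was at 70.9, 97.5 and 112 CPM in control and 83.3, 56.0 and 67.7 CPM in cKO samples, which overlapped.

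Genes that keep germline genes silent in somatic cells, among them the MGA and E2F6 complex and the DNA methyltransferases, formed the last list. None of the 10 was called by edgeR or DESeq2, and 0 had an unadjusted edgeR p below 0.05. Their log2 fold changes lay between -0.18 and 0.12, with a median of -0.02. Uhrf1, which guides maintenance methylation, had the lowest p, with a log2 difference of 0.10 (SE 0.0551, edgeR FDR 0.502). Beside these lists, the 14 germ cell markers, chosen with earlier results of these data known, were lower in 14 of 14 with a median of -0.85. Of the 15577 tested genes, 7926 were lower. edgeR called 0 of the markers, and 13 were lower at an unadjusted p below 0.05, where 5.8% of all tested genes were. DESeq2 called 2, Mael and Dnd1, where it called 0.379% of genes lower. Dppa3, a gene of early germ cells, had the lowest edgeR p, at 74.7, 105 and 83.4 CPM in control and 51.7, 20.4 and 39.2 CPM in cKO samples, without overlap (log2 fold change -1.24, SE 0.271, edgeR FDR 0.377). Ddx4 was at 54.7, 109 and 117 CPM in control and 61.0, 33.5 and 54.8 CPM in cKO samples, and Dazl at 173, 257 and 304 CPM against 195, 76.4 and 127 CPM. For both, control replicate 1 lay within the range of the cKO samples, since Ddx4 and Dazl were higher in cKO replicate 1.

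**Figure D4:**
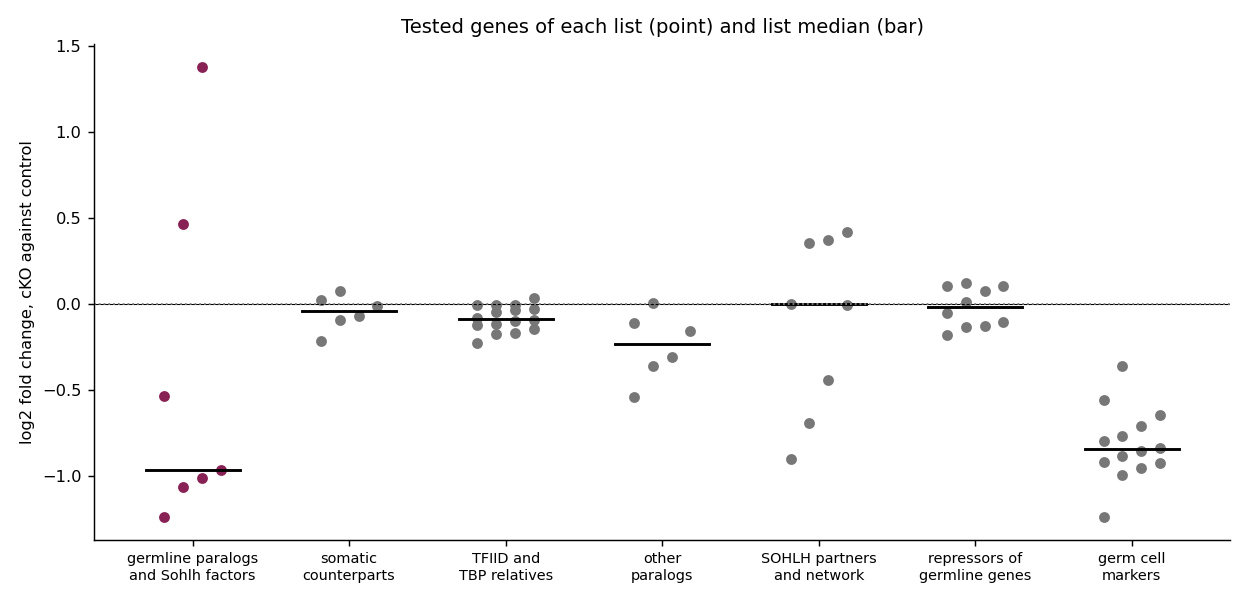
Log2 fold change of cKO against control (vertical axis, edgeR) of every tested gene in 7 lists (the germline genes, counterparts, TFIID and TBP relatives, other paralogs, SOHLH partners, repressors and germ cell markers), as points, with a bar at the list median and a dotted line at the median of all tested genes. The germline genes and the germ cell markers have medians of -0.97 and -0.85, and the other lists plotted have medians between -0.23 and -0.0017. Of the germline genes, Brdt, Rpl10l and Sohlh2 were chosen by this contrast.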

How the data were processed

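Stranded mRNA libraries of whole E12.5 testes were sequenced, 3 control and 3 cKO, grouped and numbered by sample title. The deposited values were raw counts per gene. The authors aligned read pairs to mm10 with STAR (2.5 in the submitters' processing notes) and counted RefSeq Curated genes with featureCounts (Subread 1.5.0-p1) in reverse-stranded mode, with no normalization and no setting that counts reads of several loci. Counts were fitted over all genes with edgeR 4.0.16 in R 4.3.3 (filterByExpr, minimum count 10, TMM, quasi-likelihood F-test between the groups), with Benjamini-Hochberg adjustment over 15577 genes and an FDR threshold of 0.05. The SE was derived from the F statistic. CPM used TMM-scaled library sizes, and log2 CPM a prior count of 2. DESeq2 1.42.0, limma-voom (limma 3.58.1), RLE size factors, no filter, a stricter filter (3 samples reaching a CPM of 1), the replicate block and leaving out each sample were alternatives. DESeq2 without each sample was chosen as a further alternative after seeing the data. The fits were checked on simulated counts with known changes. Every pair of libraries differed by more than sampling noise. The labels name no separate embryos per pool, so p-values measure the spread between these samples.

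Exon lengths and transcripts came from GENCODE M21 and promoters from RefSeq, both on GRCm38, the assembly of mm10. Windows of 50 bases were compared on the transcript strand. The 7 genes and all lists were chosen with earlier results of these data known, and the motifs after the promoters were seen. The named genes were the 7, their counterparts, Ppp1r3c, Xist, Fst, Ddx4, Dazl, in each other list any gene called by either tool and the gene of lowest edgeR p, and the genes of most similar profile. Other genes were named after their values were seen. The symbol Meiosin was not matched. A further counterpart gene is not reported here.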

Additional observations from a re-analysis of the deposited data

How the results depend on the processing

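The lower values of Brdt, Rpl10l, Rpl39l, Taf4b and Sohlh2 kept their direction under all 12 alternatives, and so did the higher value of Sohlh1 wherever it passed the filter. Taf7l changed sign without cKO replicate 3 and ranged from -0.0885 to 1.13 without single samples. Brd2, near 0, ranged from -0.0294 to 0.0034. The number of the 7 genes called was 0 by edgeR, 4 by DESeq2, 1 by limma-voom and 1 with no filter on low counts (Brdt in both), and 0 to 1 without single samples (Brdt without cKO replicate 1). By DESeq2 it was 2 to 5 without single samples, and without control replicate 3 DESeq2 gave the 7 no adjusted p. DESeq2 called 1 of the other paralogs. Over all genes, 5 were called higher and 1 lower by edgeR, 57 and 54 by DESeq2. With the stricter filter 3 were called higher, and with limma-voom or no filter 2 were called lower. Without single samples the counts were 1 to 5 higher and 1 to 3 lower. The cause was not tested. The median of the SOHLH list, -0.0017 in the edgeR fit, was -0.44 with no filter, which adds genes of a few counts, and -0.23 to 0.12 without single samples. The replicate numbers did not pair the samples (correlations of deviations of -0.20, -0.27 and -0.13). With the replicate block edgeR called 2 genes higher and 0 of the 7.

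Taf7l and Sohlh1 were measured from 4 to 72 counts, which limits their precision.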
